A study of Mus musculus with 12 samples.

Results

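Among 29937 genes measured by RNA sequencing in 4T1 cells, a mouse mammary carcinoma line, 6 genes were taken by name, and all were found. They are the plasminogen activator genes Plau and Plat, the receptor gene Plaur and the serpin genes Serpinb2, Serpine2 and Serpinf1. The 12 libraries of poly(A) RNA fall into 4 groups of 3, named OAP2, Oxa, APAP and PBS after their titles. All are labelled as wild-type cells of an adherent line, and the treatment label repeats the group name except in the PBS group, where it reads DMSO. The labels do not expand the names of the agents, and the sources used here give neither doses nor treatment times. They also do not say that replicates were separate cultures, so a p-value covers only the spread among libraries within groups, which may be technical. Unless stated, the fits estimated that spread over all 4 groups together. The design text speaks of a xenograft derived from cells, while the labels name a cell line. The 6 genes were chosen by name with earlier fold changes from these same libraries in view, among them Serpinb2, Serpinf1 and Plau in treated cells against PBS. Values against PBS are therefore given as descriptions, and the other comparisons are no independent evidence either.

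Plasminogen activators are secreted serine proteases that cut plasminogen into plasmin, a broad protease that dissolves fibrin and degrades pericellular matrix. Urokinase, encoded by Plau, works mainly at the cell surface, bound to the receptor encoded by Plaur, and tissue plasminogen activator, encoded by Plat, works mainly on fibrin. Most serpins are suicide inhibitors that trap such proteases through a reactive loop. In breast carcinoma, urokinase, its receptor and their inhibitors are known for their roles in invasion.

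Plau lies on chromosome 14 (20836660 to 20843385, plus strand), Plaur on chromosome 7 (24462484 to 24475968, plus strand) and Plat on chromosome 8 (22757727 to 22782844, plus strand). Serpinb2 lies on chromosome 1 (107511423 to 107532535, plus strand), Serpine2 on chromosome 1 (79794197 to 79858696, minus strand) and Serpinf1 on chromosome 11 (75409769 to 75422701, minus strand), all in GRCm38. All are protein coding, and in GENCODE M21 no other gene overlaps them apart from Serpinb10, which overlaps Serpinb2 on the same strand and had 10 counts over all 12 libraries. Of the 6 genes, RefSeq promoters of the same build were matched for Plaur, Serpinb2, Serpine2 and Serpinf1.

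Windows are shown for 3 genes, since Serpinb2 and Plaur were lower than PBS in every treatment and Serpinf1 in Oxa alone was clear of PBS. Each holds the 250 bases before the RefSeq start of the gene. They run 5′ to 3′ on the strand of the gene. A set of 5 motifs was searched on both strands, and the capitals mark their matches: AP-1 (TGANTCA), the CRE core (TGACGT), TEAD (GGAATG), the TATA box (TATAAA) and the GC box (GGGCGG).
Serpinb2, chr1:107511173-107511422, plus strand: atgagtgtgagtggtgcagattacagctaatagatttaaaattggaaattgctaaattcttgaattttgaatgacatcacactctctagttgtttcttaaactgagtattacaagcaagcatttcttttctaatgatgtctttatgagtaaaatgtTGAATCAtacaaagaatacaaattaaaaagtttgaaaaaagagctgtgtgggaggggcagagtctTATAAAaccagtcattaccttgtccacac
Plaur, chr7:24462233-24462482, plus strand: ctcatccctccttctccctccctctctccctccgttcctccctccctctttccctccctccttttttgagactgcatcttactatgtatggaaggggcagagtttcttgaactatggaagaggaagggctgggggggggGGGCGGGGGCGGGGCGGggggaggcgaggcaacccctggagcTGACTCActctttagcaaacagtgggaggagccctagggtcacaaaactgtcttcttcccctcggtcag
Serpinf1, chr11:75422624-75422873, minus strand: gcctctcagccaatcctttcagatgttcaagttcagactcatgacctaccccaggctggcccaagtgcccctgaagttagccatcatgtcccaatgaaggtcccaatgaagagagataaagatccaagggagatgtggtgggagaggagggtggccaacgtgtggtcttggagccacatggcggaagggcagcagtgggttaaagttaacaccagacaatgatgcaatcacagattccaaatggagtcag
The Serpinb2 window holds an AP-1 match that begins 94 bases before the start and a TATA box that begins 29 bases before it. The Plaur window holds an AP-1 match that begins 69 bases before the start and 3 GC boxes side by side, of which the second and the third share a base. The Serpinf1 window holds none of the 5 motifs. Its RefSeq start lies inside the gene as placed above, so the bases of this window from 75422624 to 75422701 belong to the gene. Of 32851 promoters of the same length, 6.75% hold the AP-1 motif, 6.47% the CRE core, 12.6% the TEAD motif, 12.4% the TATA box and 32.7% the GC box. RefSeq lists a further start of Serpinb2 downstream, which is not shown.

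Depth lay between 64071751 and 71500487 counts per library. Levels are FPKM, scaled to transcript length and library, given as mean ± SD (n = 3 libraries), and changes are log2 fold changes ± SE from edgeR counts. Markers of epithelial cells summed to FPKM 970 to 1100 in the OAP2 and Oxa libraries, 878 to 897 in APAP and 819 to 1240 in PBS. The control library PBS 2 stood apart: its 5 red blood cell markers summed to 230, against at most 0.37 in the other libraries, and its 8 neutrophil markers to 67.1, against at most 0.54. Summed FPKM of the 8 macrophage markers was 46.2 in PBS 1 and between 12.1 and 20.7 in each of the other 11 libraries. Endothelial markers summed to at most 0.1 in every library. In bulk RNA, fewer cells of a type and less RNA per cell cannot be told apart.

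Of the 6 genes, 4 passed the filter of FPKM 1 or more in 3 or more libraries: Plau, Plaur, Serpinb2 and Serpinf1. Against PBS, 2 of these 4 were called lower in OAP2 at an adjusted p below 0.05 (Plau and Serpinb2), where 3.11% of the 12036 genes tested were called lower. All 4 were called lower in Oxa, where 4.76% of genes were. By edgeR 0 of the 4 were called in APAP, where 0.0166% of genes were called lower. In APAP 3 of the 4 had an unadjusted edgeR p below 0.05, as did 1103 of the 12036 genes tested. DESeq2 called 2 lower there (Plau and Serpinb2), where it called 72 of the 12036 genes lower. With limma on log2(FPKM + 1), 0 of the 4 were called in APAP. The libraries of the treatment lay wholly below those of PBS for 3 of the 4 genes in OAP2 (9.94% of all genes tested), for 4 in Oxa (14.6%) and for 3 in APAP (11.2%). Since the choice of the genes used these contrasts, nothing is read from these counts.

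**Figure D1:**
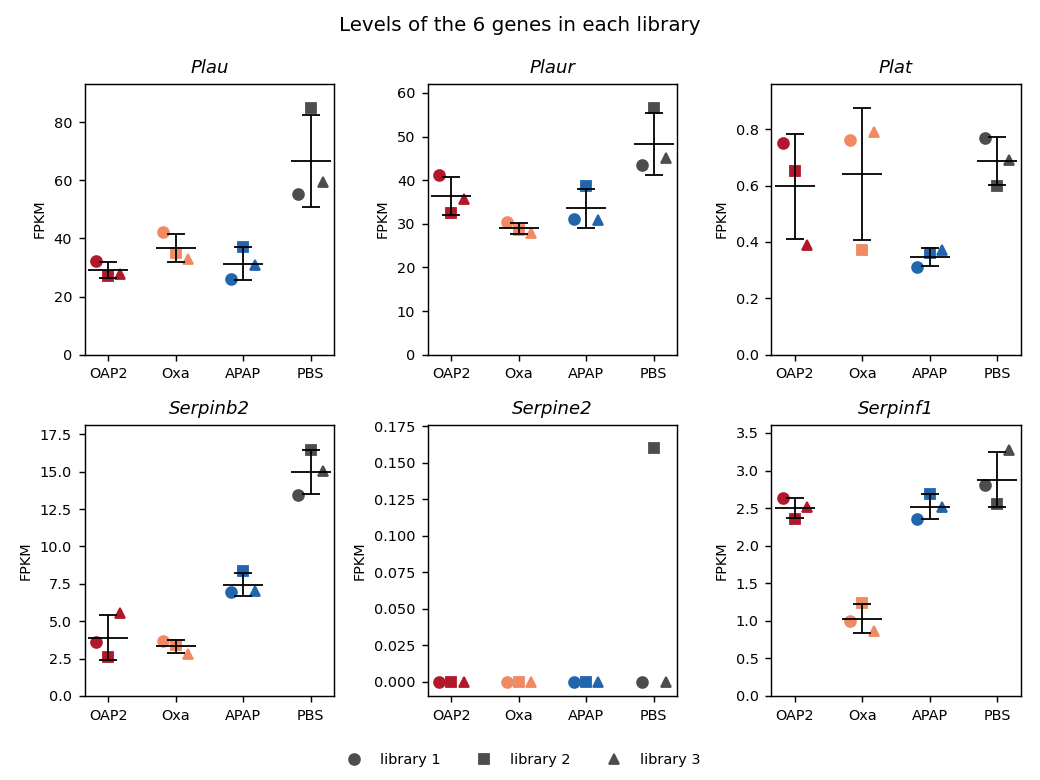
FPKM of the 6 genes (vertical axes, each with its own range) in OAP2, Oxa, APAP and PBS libraries; points are libraries, with mean and SD as bars except for Serpine2. Every treated library lies below every PBS library for Plau, Plaur and Serpinb2, Serpinf1 is low in Oxa, and Serpine2 is above 0 in PBS 2 alone.

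Among the activators, Plau, the urokinase gene, was the most abundant in PBS cells and stood at less than that level in each treatment. Its FPKM was 32.32, 27.15 and 27.92 in OAP2 1 to 3, 42.14, 34.86 and 32.99 in Oxa 1 to 3, and 26.09, 37.16 and 30.86 in APAP 1 to 3, against 55.48, 84.85 and 59.53 in PBS 1 to 3. No treated library reached the lowest PBS library, and PBS 2 was the highest of the 12. The group means were 29.1 ± 2.79 in OAP2, 36.7 ± 4.83 in Oxa and 31.4 ± 5.55 in APAP, against 66.6 ± 15.9 in PBS. The log2 fold change against PBS was -1.18 ± 0.17 in OAP2 (2.27-fold lower), -0.85 ± 0.17 in Oxa and -1.04 ± 0.17 in APAP. Without PBS 2 these values were -0.97, -0.64 and -0.83. The part of the blood cell transcripts in PBS 2 in these changes was not tested beyond leaving that library out.

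Plat, which encodes tissue plasminogen activator, was expressed at a small fraction of the Plau level in all libraries. It did not pass the filter, with a highest FPKM of 0.79, but its counts of 153 to 405 per library gave a measurable level. FPKM was 0.75, 0.65 and 0.39 in OAP2 1 to 3, 0.76, 0.37 and 0.79 in Oxa 1 to 3, and 0.31, 0.36 and 0.37 in APAP 1 to 3, against 0.77, 0.60 and 0.69 in PBS 1 to 3. The APAP libraries all lay below the PBS libraries, while OAP2 and Oxa each held 1 library near the APAP level and overlapped with PBS. When all genes were fitted without the FPKM filter, the log2 fold change against PBS was -0.21 ± 0.29 in OAP2, -0.09 ± 0.29 in Oxa and -0.97 ± 0.29 in APAP. Plau exceeded Plat in FPKM by 41.8 to 71.6 times in OAP2, 41.8 to 94.2 times in Oxa and 83.4 to 103.0 times in APAP, and by 72.1 to 141.0 times in PBS.

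Plaur, which encodes the urokinase receptor, a protein tethered to the outer membrane by a lipid anchor, was also lower than in PBS cells. FPKM was 41.14, 32.45 and 35.74 in OAP2 1 to 3, 30.43, 28.54 and 27.86 in Oxa 1 to 3, and 31.06, 38.73 and 30.81 in APAP 1 to 3, against 43.48, 56.49 and 45.10 in PBS 1 to 3. The Oxa libraries were the lowest, and no treated library reached PBS 1, the lowest control, although OAP2 1 came close. The means were 36.4 ± 4.39 in OAP2, 28.9 ± 1.33 in Oxa and 33.5 ± 4.5 in APAP, against 48.4 ± 7.09 in PBS. Against PBS the log2 fold change was -0.40 ± 0.13 in OAP2, -0.73 ± 0.13 in Oxa (1.66-fold lower) and -0.49 ± 0.13 in APAP. Without PBS 2 it was -0.27, -0.60 and -0.36.

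Serpinb2, which encodes plasminogen activator inhibitor type 2, an inhibitor of urokinase found largely inside the cell, had the largest fold changes of the 4 genes that passed the filter in OAP2 and in Oxa against PBS. FPKM was 3.58, 2.57 and 5.53 in OAP2 1 to 3, 3.70, 3.41 and 2.83 in Oxa 1 to 3, and 6.94, 8.36 and 7.04 in APAP 1 to 3, against 13.46, 16.47 and 15.03 in PBS 1 to 3. The groups formed 3 levels with no overlap: OAP2 and Oxa together lowest, APAP between, and PBS highest. The means were 3.89 ± 1.5 in OAP2, 3.31 ± 0.443 in Oxa and 7.45 ± 0.793 in APAP, against 15.0 ± 1.51 in PBS. The log2 fold change against PBS was -1.93 ± 0.23 in OAP2 (3.81-fold lower), -2.16 ± 0.23 in Oxa (4.48-fold lower) and -0.97 ± 0.22 in APAP (1.95-fold lower). Leaving out PBS 2 gave -1.85, -2.09 and -0.89.

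Macrophages and neutrophils are known sources of urokinase, its receptor and Serpinb2, so their markers were set beside these levels. In PBS 3 the 8 macrophage markers summed to FPKM 12.1, against 12.3 to 20.7 in the treated libraries. In that control library Csf1r and Cd68 made up the whole macrophage sum, and the other 6 macrophage markers, including Adgre1 and Lyz2, stood at 0. All 8 neutrophil markers stood at 0 there. Plau (59.53), Plaur (45.10) and Serpinb2 (15.03) in PBS 3 were above every treated library. The part of these cells in the levels of any library was not tested.

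Serpinf1, which encodes pigment epithelium-derived factor, a secreted serpin known as an inhibitor of angiogenesis and without protease inhibitor activity, followed another pattern. FPKM was 2.63, 2.36 and 2.52 in OAP2 1 to 3, 1.00, 1.23 and 0.86 in Oxa 1 to 3, and 2.35, 2.69 and 2.52 in APAP 1 to 3, against 2.81, 2.55 and 3.28 in PBS 1 to 3. The Oxa libraries lay below the other 9, which overlapped between their groups. The means were 2.50 ± 0.136 in OAP2, 1.03 ± 0.187 in Oxa and 2.52 ± 0.17 in APAP, against 2.88 ± 0.37 in PBS. Against PBS the log2 fold change was -0.19 ± 0.19 in OAP2, -1.46 ± 0.19 in Oxa (2.75-fold lower) and -0.15 ± 0.19 in APAP. Fibroblasts are a known source of this protein, and the sum of 7 fibroblast markers was 0.76 to 1.39 in OAP2, 1.65 to 2.04 in Oxa and 1.19 to 1.57 in APAP, against 1.86 to 3.7 in PBS. Of these markers, Lum was at 0 in 11 libraries and above 0 in PBS 2, and Dcn was at 0 in 10. Col1a2 and Col3a1 were at 0 in some libraries, while Col1a1, Pdgfra and Postn were above 0 in every library. The part of fibroblasts in the Serpinf1 levels was not tested.

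Serpine2, which encodes protease nexin-1, an inhibitor of thrombin and of plasminogen activators, was close to undetected. The counts were 0 in all 9 treated libraries and in PBS 3, 4 in PBS 1 and 108 in PBS 2, where FPKM was 0.16. A count of 0 allows up to 3 counts in a library, by counting error only. The 1 library with a clear signal was thus PBS 2, which also held the red blood cell and neutrophil transcripts and the highest fibroblast sum (3.7), and their part in the Serpine2 signal was not tested.

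**Figure D2:**
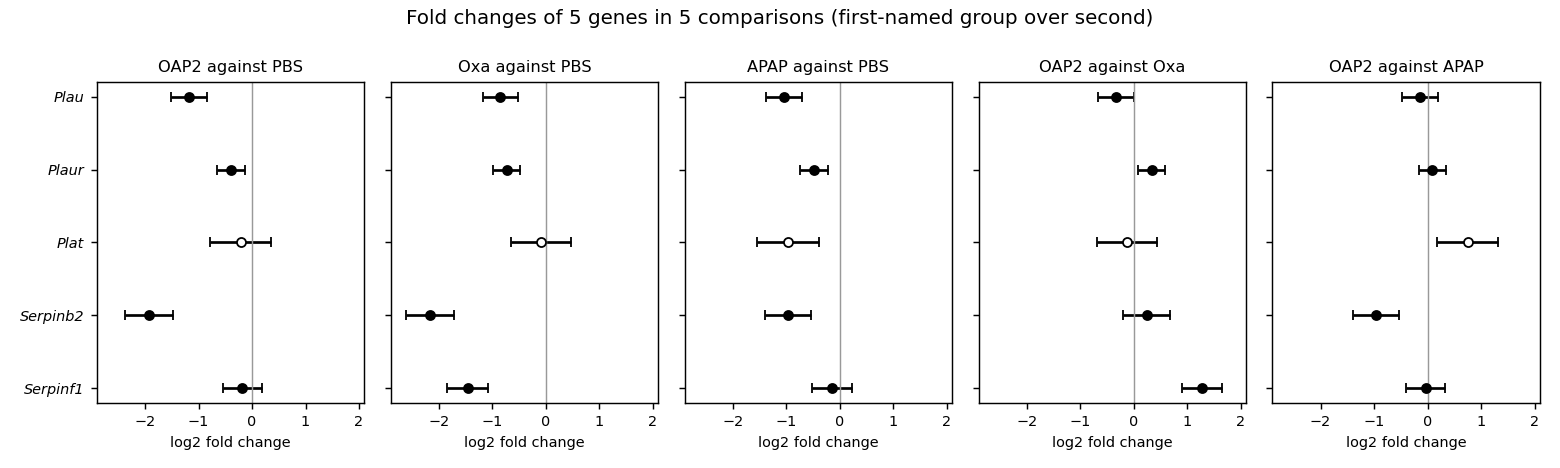
Log2 fold changes (horizontal axes, first-named group over second) of 5 genes in 5 comparisons, with approximate 95% intervals. Plat (open circles) comes from the fit with no filter. Serpinf1 differs between OAP2 and Oxa (1.27), while Serpinb2 lies at -1.93 and -2.16 against PBS in these groups.

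OAP2 against Oxa and OAP2 against APAP compare the treatments directly, and the design text sets OAP2 against the other drugs. Serpinf1 was 2.42-fold higher in OAP2 than in Oxa (1.27 ± 0.19, edgeR adjusted p = 0.00129), with every OAP2 library above every Oxa library. It was the 1 gene called of the 4 that passed the filter, where 6.02% of all genes were called higher. The libraries of the 2 groups did not overlap for 3 of the 4 genes, against 36.1% of all genes tested. Serpinb2 did not pass (0.24 ± 0.22, approximate 95% interval -0.20 to 0.67, edgeR adjusted p = 0.538), nor did Plau (-0.33 ± 0.17, -0.66 to 0.00, edgeR adjusted p = 0.225). Plaur was at 0.34 ± 0.13 (0.08 to 0.59, edgeR adjusted p = 0.107), with the OAP2 libraries above the Oxa libraries, and with the fit limited to these 6 libraries it was called (edgeR adjusted p = 0.0401). Plat was at -0.12 ± 0.29 in the fit with no filter.

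Against APAP, 0 of the 4 genes were called by edgeR, where 0.474% of all genes were. An unadjusted edgeR p below 0.05 was reached by 1 of the 4, and by 1835 of the 12036 genes tested. Limma called 0 of the 4 and DESeq2 1, where DESeq2 called 506 of the 12036 genes tested. That gene was Serpinb2, which was at -0.96 ± 0.22 in OAP2 relative to APAP (approximate 95% interval -1.40 to -0.53, edgeR adjusted p = 0.0841), with no overlap between the libraries, as in 25.7% of all genes tested. DESeq2 called it (adjusted p = 0.00306), and so did edgeR without OAP2 3 (-1.31, adjusted p = 0.0176), the OAP2 library with the most Serpinb2. The other values were small, at -0.14 ± 0.17 for Plau (-0.47 to 0.19), 0.09 ± 0.13 for Plaur (-0.16 to 0.34) and -0.03 ± 0.19 for Serpinf1 (-0.40 to 0.33). Plat was at 0.75 ± 0.29 in the fit with no filter (edgeR adjusted p = 0.497), with all OAP2 libraries above all APAP libraries.

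**Figure D3:**
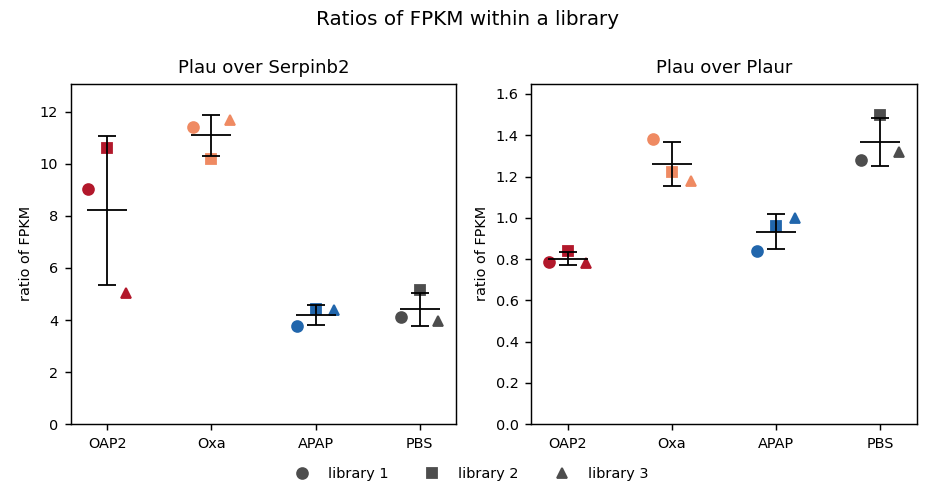
Ratios of FPKM within each library (vertical axes) in OAP2, Oxa, APAP and PBS, with mean and SD as bars. Plau over Serpinb2 is highest in Oxa (10.2 to 11.7), and Plau over Plaur is below 1 in OAP2 (0.781 to 0.837).

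The balance between protease, receptor and inhibitor transcripts was described within each library, where FPKM is per length. Plau exceeded Serpinb2 by 9.03, 10.6 and 5.05 times in OAP2 1 to 3, by 10.2 to 11.7 times in Oxa and by 3.76 to 4.44 times in APAP, against 3.96 to 5.15 times in PBS. Both transcripts were lower than in PBS in all 3 treatments, and their ratio was higher in Oxa and in OAP2 1 and OAP2 2, while OAP2 3 lay within the PBS range. Plau relative to Plaur was 0.781 to 0.837 in OAP2, 1.18 to 1.38 in Oxa and 0.84 to 1.0 in APAP, against 1.28 to 1.5 in PBS. Per length, the receptor transcript was thus the more abundant in the OAP2 libraries, and the urokinase transcript in the Oxa and PBS libraries. These ratios are descriptions and were not tested.

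A further 30 genes of the plasminogen system were listed by role, of which Plg and Serpina5 were not found by name and so were not analysed. The remaining 28 include 13 that passed the filter. Against PBS, 1 was called higher and 0 lower in OAP2, where 5.25% of all genes were called in either direction (median log2 fold change 0.07, against -0.001 over all genes tested), and 1 higher and 0 lower in Oxa, where 10.1% were (median -0.06, against -0.013). In APAP 0 of the 13 were called by edgeR, DESeq2 or limma (median -0.02, against -0.004). Of all genes tested, edgeR called 0.0166% there and DESeq2 called 97. An unadjusted edgeR p below 0.05 was reached by 3 of the 13, and by 1103 of the 12036 genes tested. In OAP2 against Oxa, 2 were called higher and 0 lower, where 12.9% of all genes were called (median -0.08, against 0.001). In OAP2 against APAP 0 of the 13 were called by edgeR, DESeq2 or limma (median 0.19, against 0.002). Of all genes tested, edgeR called 0.474% there and DESeq2 called 506. An unadjusted edgeR p below 0.05 was reached by 1 of the 13, and by 1835 of the 12036 genes tested. None of the 4 listed substrates passed the filter, and Hgf, the growth factor that urokinase and related proteases activate, reached an FPKM of at most 0.01.

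**Figure D4:**
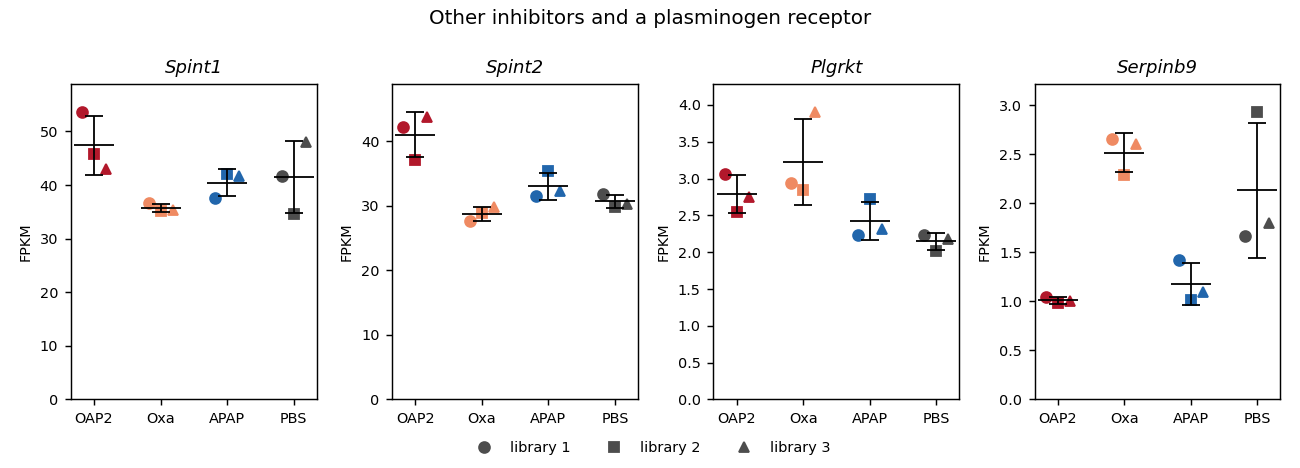
FPKM (vertical axes, each from 0) of 3 inhibitor genes and the plasminogen receptor gene Plgrkt in OAP2, Oxa, APAP and PBS libraries, with mean and SD as bars. Spint2 is highest in OAP2 (37.07 to 43.77), and Serpinb9 is low in OAP2 (0.98 to 1.05) and in APAP (1.01 to 1.42).

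Among the other inhibitors, Spint2, a membrane-bound Kunitz inhibitor of matriptase and hepsin, rose in OAP2. Its FPKM was 42.14, 37.07 and 43.77 in OAP2 1 to 3, against 31.84, 29.86 and 30.32 in PBS 1 to 3, with no overlap (0.43 ± 0.09, edgeR adjusted p = 0.0164). The call ended without OAP2 1 (0.0632), without PBS 3 (0.0533) and with only the 6 libraries compared (0.192). It was also higher in OAP2 than in Oxa, at 41.0 ± 3.49 in OAP2 and 28.8 ± 1.06 in Oxa (0.51 ± 0.09, edgeR adjusted p = 0.0032). OAP2 against APAP did not pass (0.28 ± 0.09, edgeR adjusted p = 0.17), with the OAP2 libraries above the APAP libraries.

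Spint1, a relative of Spint2 that also inhibits matriptase, was higher in OAP2 than in Oxa, at 47.5 ± 5.48 in OAP2 and 35.7 ± 0.798 in Oxa (0.41 ± 0.11, edgeR adjusted p = 0.0308). Of the 6 libraries compared, leaving out any but OAP2 3 ended that call, with adjusted p from 0.0597 to 0.122, as did no filter (0.0666) and limma on log2(FPKM + 0.1) (0.0505). Spint1 was at 0.21 ± 0.11 in OAP2 and -0.21 ± 0.11 in Oxa against PBS and did not pass, though without PBS 2 it was called in Oxa (-0.32, edgeR adjusted p = 0.0273). St14, which encodes matriptase, the protease that both inhibit, was at 0.07 ± 0.11 in OAP2 and 0.15 ± 0.11 in Oxa against PBS and did not pass.

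Among receptors and clearance proteins, Plgrkt, a membrane receptor that binds plasminogen, was higher in Oxa than in PBS. Its FPKM was 2.94, 2.84 and 3.90 in Oxa 1 to 3, against 2.24, 2.02 and 2.18 in PBS 1 to 3, with no overlap (0.59 ± 0.15, edgeR adjusted p = 0.0287). That call ended without any 1 of the 6 libraries except PBS 2, with adjusted p from 0.0566 to 0.129, with only these 6 libraries (0.0877) and with no filter (0.0531). The annexin Anxa2 and its partner S100a10, which together hold plasminogen and tissue plasminogen activator at the cell surface, were abundant, with a mean FPKM of 158 and 79.0 over the 12 libraries. Anxa2 was at -0.18 ± 0.10 in OAP2, 0.01 ± 0.10 in Oxa and -0.25 ± 0.10 in APAP against PBS. S100a10 was at -0.27 ± 0.21, -0.16 ± 0.21 and -0.46 ± 0.21 in the same order. Neither passed, though the APAP libraries lay below the PBS libraries for both genes.

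Of 38 further serpin genes in the table, a list that partly overlaps the one above, 5 passed the filter, and none of the 11 of clade A, the liver-type secreted serpins, did. Serpinb9, an intracellular inhibitor of granzyme B, was the 1 gene called, lower in OAP2 than in PBS (-1.07 ± 0.22, edgeR adjusted p = 0.0154) and than in Oxa (-1.31 ± 0.22, edgeR adjusted p = 0.00268). Its FPKM was 1.05, 0.98 and 1.00 in OAP2 1 to 3, 2.66, 2.29 and 2.61 in Oxa 1 to 3 and 1.42, 1.01 and 1.10 in APAP 1 to 3, against 1.67, 2.93 and 1.80 in PBS 1 to 3. The OAP2 and APAP libraries overlapped, and OAP2 against APAP did not pass (-0.25 ± 0.22, edgeR adjusted p = 0.642). Serpinb9 was highest in PBS 2, and without that library it was at -0.77 in OAP2, 0.54 in Oxa and -0.52 in APAP against PBS, where all libraries gave -1.07, 0.25 and -0.82. The call of OAP2 against PBS ended without OAP2 1 (0.0568), without OAP2 2 (0.0624) and with only the 6 libraries compared (0.157). Serpinb9 has close relatives in the same family, and how the authors counted a read matching more than 1 of them is not stated here, so its values are less certain. The serpin list had 0 higher and 1 lower in OAP2 against PBS, where 5.25% of all genes were called (median -0.03, against -0.001 over all genes tested). It had 0 higher and 1 lower in OAP2 against Oxa, where 12.9% were (median -0.05, against 0.001). By edgeR, 0 were called in Oxa against PBS (median 0.05, against -0.013), APAP against PBS (-0.30, against -0.004) and OAP2 against APAP (0.21, against 0.002), where 10.1%, 0.0166% and 0.474% of all genes were called, with 1, 2 and 0 of them at an unadjusted p below 0.05. In these 3 comparisons DESeq2 called 0, 1 and 0, where it called 2015, 97 and 506 of all genes, and limma called 0 in each. Serpinb5, the maspin gene, and Serpinh1, a collagen chaperone, were expressed at a mean FPKM of 3.83 and 120.0 and were called in none of the 5 comparisons by edgeR.

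The genes whose levels were most like those of each gene over the 12 libraries were found by Pearson correlation of log2(FPKM + 1), a description in which points share groups and libraries. For Serpinb2 they were Mmd (0.982), Tbrg4 (0.962) and Mpzl3 (0.96), and Mmd had a mean FPKM of 14.0 in OAP2, 14.0 in Oxa and 17.2 in APAP, against 22.8 in PBS. For Serpinf1 they were Prodh (0.96), the proline dehydrogenase gene, Tmem171 (0.955) and Pex16 (0.952), a peroxisome assembly gene. Tmem171 had a mean FPKM of 10.2 in OAP2, 4.62 in Oxa and 9.2 in APAP, against 11.6 in PBS. For Plau they were Eif2a (0.951), Mettl9 (0.922) and the cytochrome gene Cyp1b1 (0.916), and for Plaur Rabggtb (0.918) and the membrane protease gene Tmprss11e (0.899). Without PBS 2 the values for Plau lay between 0.844 and 0.921, and those for Plaur between 0.859 and 0.87. After removal of the group means, the correlation was 0.909 for Serpinb2 with Mmd and between 0.587 and 0.835 for the other pairs.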

How the data were processed

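Per the labels, poly(A) RNA from Trizol extracts was made into paired-end libraries that mark strand with dUTP. The submitters' processing notes list cutadapt 1.9, StringTie 2.1.6, HISAT2 2.2.1, edgeR and DESeq2 with no role for any, and build mm9. The positions in the files are nevertheless those of GRCm38, since 87.9% of 29864 genes shared with GENCODE M21 sit at identical coordinates there. The authors deposited FPKM values, scaled to length and library, and unscaled estimated counts (expected counts), whose values were already whole, so that rounding changed none. The PBS values are in columns headed CON, read as control by inference, since the other columns carry the names of the 3 treatments.

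A gene was tested if its FPKM reached 1 in 3 or more of the 12 libraries, which left 12036. Counts scaled by TMM were fitted by edgeR 4.0.16 quasi-likelihood in R 4.3.3 to the 4 group means together, 2-sided, with Benjamini-Hochberg adjustment over all genes tested and a threshold of 0.05. The SE is approximate, being the size of the log2 fold change over the root of the F statistic. The fit was tested on simulated data. The alternatives were RLE scaling, DESeq2 1.42.0, no filter, limma 3.58.1 on log2(FPKM + 1) or log2(FPKM + 0.1), only the libraries compared, each library left out, a replicate block and CPM levels. The genes and lists were chosen with earlier results of these data known. From the lists, genes called in at least 1 comparison were named, up to 4 per list and comparison, and for likeness the 3 best correlated genes with a mean FPKM of at least 5. Anxa2, S100a10, St14, Hgf, Serpinb5 and Serpinh1 were named after their values were seen. Some genes that these rules and lists take in are not reported here by name. Comparisons with PBS share the PBS libraries. With 3 libraries a group, precision is limited by the spread between libraries (common biological coefficient of variation 18.1% in edgeR).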

Additional observations from a re-analysis of the deposited data

How the results depend on the processing

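The directions and calls of Plau, Plaur, Serpinb2 and Serpinf1 against PBS in OAP2 and Oxa held under every alternative run. In APAP against PBS, Plau and Serpinb2 were called by DESeq2 only. Over 520 alternative values for the 4 genes that passed the filter and 4 further named genes, 493 kept their side of the threshold and direction of call. Uncalled values near 0 changed sign for Serpinb2 in OAP2 against Oxa without OAP2 3 (-0.11), and for Plau (0.01) and Serpinf1 (0.03) in OAP2 against APAP without APAP 2. Spint1 in APAP against PBS, at 0.01, was -0.02 in both limma fits, -0.03 without APAP 2 and -0.10 without PBS 2.

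Counts over all genes moved more, and the cause was not tested. OAP2 against PBS had 632 calls, 1267 by DESeq2, 360 with no filter and 38 with only the 6 libraries compared. Oxa against PBS had 1217, and 2015, 701 and 523 under the same settings. APAP against PBS had 2, and 97, 0 and 0. OAP2 against Oxa had 1557, and 1026 with no filter. OAP2 against APAP had 57, and 506, 4 and 286, and 30 with the replicate block. Leaving out 1 library gave 252 (without OAP2 1) to 1976 (without PBS 2) for OAP2 against PBS, 477 (without Oxa 2) to 3066 (without PBS 2) for Oxa against PBS, and 0 to 3 for APAP against PBS. It gave 688 (without Oxa 2) to 1501 (without OAP2 3) for OAP2 against Oxa, and 0 (without APAP 2) to 125 (without OAP2 3) for OAP2 against APAP.

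The labels do not say that a shared replicate number pairs libraries. In the 18 pairs that share one, departures from the group means correlated at -0.147 to 0.299. No reference range for unrelated pairs was made, so these values do not settle pairing. With the block the other counts were 513, 1097, 3 and 1421, and no call of Plau, Plaur, Serpinb2 or Serpinf1 changed. With FPKM replaced by CPM, levels relative to PBS moved by less than 1 SD. Serpine2 was not detected in 10 libraries, where 0 counts allow up to 3.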
